A study of Arabidopsis thaliana with 14 samples.

Results

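RCA, LHCB4.1, LHCB4.3, PSAE1 and PSBW are nuclear genes of Arabidopsis thaliana whose proteins work in chloroplasts, and their RNA was measured here in whole seedling roots over a time course without iron. The 5 genes were taken by locus, each through a probe set that the platform table pairs with 1 gene only, out of 13333 genes with such a probe set. All 5 were found, each with 1 probe set, and all 5 passed the filter on low signal. RCA (AT2G39730) encodes rubisco activase, which frees the carbon-fixing enzyme from bound inhibitors. LHCB4.1 (AT5G01530) and LHCB4.3 (AT2G40100) encode forms of CP29, a minor antenna protein that joins the light-harvesting antenna to photosystem II. PSAE1 (AT4G28750) encodes a stromal subunit of photosystem I at the side where ferredoxin is reduced, and PSBW (AT2G30570) a small membrane subunit of photosystem II. LHCB4.1 and PSAE1 have close copies elsewhere in the genome (LHCB4.2 and PSAE2), and cross-hybridisation between copies was not assessed here.

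Photosynthesis genes of the nucleus are transcribed mainly in green tissue, where light and signals from the plastid raise them together, and their proteins are imported into the chloroplast. Roots hold mostly non-green plastids, so the RNA of these genes is usually low there, although roots grown in light can form some chloroplasts. The photosynthetic chain is rich in iron, which sits in photosystem I, the cytochrome complex and ferredoxin, and leaves that lack iron turn pale.

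The groups held Columbia roots after 3, 6, 12, 24, 48 and 72 h on medium without iron that contained 0.3 mM Ferrozine, a chelator of ferrous iron, and roots moved for 3 h to fresh standard medium with iron. All seedlings had grown for 5 days on standard medium with 1% sucrose before the move. Of the 2 arrays in a group, each held 1 biological replicate with some 320 roots pooled, cut 0.5 mm below the junction with the hypocotyl. The labels place all harvests within one short window on the sixth day of growth, which cannot hold together with 5 days of growth for the 48 and 72 h groups, so the age of those roots is not settled.

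The arrays formed 2 sets. The 18 hybridisation spike-in probe sets had a geometric mean of 407 at 48 and 72 h (4 arrays) and of 2796 on the 10 arrays of 3 to 24 h and standard medium, and none overlapped between the sets. The highest signal per array was 11714 to 15134 in the 48 and 72 h arrays and 27452 to 43173 in the other 10. The 3′ over 5′ ratio of control transcripts, which follows RNA integrity and labelling, averaged 3.36 for actin at 48 and 72 h, against 9.54 on the other arrays. That ratio averaged 2.58 against 4.52 for ubiquitin and 0.477 against 0.698 for GAPDH. For ubiquitin the arrays overlapped, with 2.02 to 2.84 at 48 and 72 h and 1.75 to 6.21 on the others. Time and array set cannot be told apart wherever 48 or 72 h is set against standard medium or 24 h. Among the 10 earlier arrays, replicate 2 of 24 h stood apart for the photosynthesis genes and some other plastid genes, as described further on.

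Of the root markers, the root beta-glucosidase gene PYK10 had a signal of 6595 to 7508 at 48 and 72 h and of 17203 to 20475 on the other arrays. The root hair markers EXPA7 and EXPA18 summed to 185 to 428 on the later arrays, against 1078 to 3345 on the earlier ones. The endodermis marker SGN3 lay the other way, with all 4 later arrays (601 to 717) above all 10 earlier ones (424 to 539). That pattern held for 16.4% of all tested probe sets, and its reverse for 15.8%. MCM7, a marker of dividing cells, had 199 to 217 on the later arrays and 209 to 323 on the earlier ones, which overlapped. A probe set was present for 1 of 5 listed markers of the endodermis, 1 of 6 of dividing cells, 1 of 2 of the whole root and 2 of 3 of root hairs. Of 10 shoot markers listed, 4 had a probe set (YAB3, SPCH, MUTE and FAMA) and none of the 4 passed the filter on low signal. Their summed signal was 30.1 to 51.6 at 48 and 72 h and 40.7 to 127 on the other arrays. Single signals of YAB3 were 2.19 to 19.4 on the later arrays and 7.91 to 98.8 on the earlier ones. Among the stomatal lineage genes, FAMA had 6.70 to 28.8 on the later arrays and 2.17 to 45.5 on the earlier ones. SPCH had 1.53 to 7.42 against 1.44 to 24.8, and MUTE 0.835 to 12.1 against 0.790 to 7.11. For each of the 4 the later and earlier arrays overlapped. The median was lower on the later arrays for YAB3, SPCH and MUTE, and higher for FAMA (21.6 against 10.8).

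The 5 genes were lower on the arrays of 48 and 72 h without iron than on standard medium, and none of them was called in the first day. In the 3, 6, 12 and 24 h groups, 0 of the 5 passed the test against standard medium, where 0.022%, 0.945%, 2.63% and 3.62% of the 13648 tested probe sets were called. At an unadjusted limma p under 0.05 the number was 0 at 3, 6 and 24 h and 1 at 12 h. The share of all tested probe sets at that unadjusted threshold was not counted, so these numbers have no background beside them. At 48 h all 5 were lower, as were 15.6% of all tested probe sets, and at 72 h all 5 were lower, as were 17.6%. On each of the 5, the 4 arrays of 48 and 72 h lay below all of the other 10, a pattern shared by 15.8% of all tested probe sets. Because PSAE1, LHCB4.3 and PSBW passed the filter through their earlier arrays, this pattern and their calls are not independent of the filter. Calls are an adjusted p under 0.05 from limma with Benjamini-Hochberg adjustment over all tested probe sets, and each log2 fold change was taken from log2(signal + 16), so changes of low signals come out too small. All comparisons with standard medium share its 2 arrays, so they are not independent. In whole-root RNA, fewer cells of a kind and less RNA per cell cannot be told apart.

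**Figure D1:**
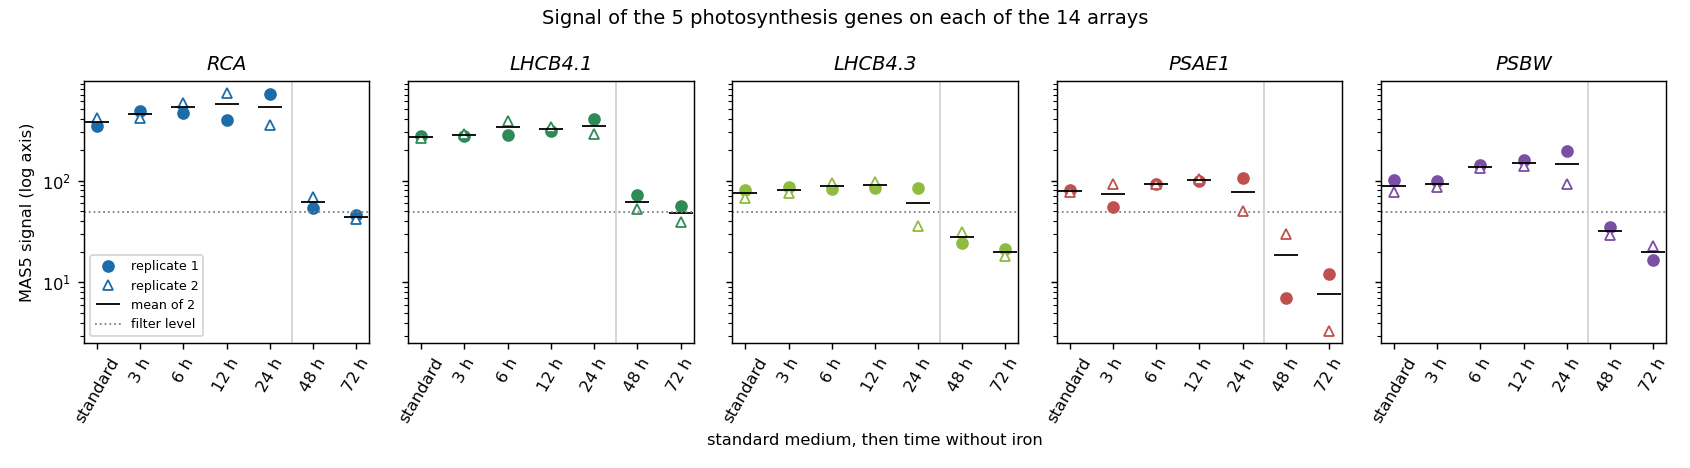
Signal of each gene (log axis) on the 2 arrays of each group, with standard medium first and then time without iron; filled circles are replicate 1, open triangles replicate 2, bars the mean of 2, the dotted line the filter level of 49.6 and the grey vertical line the step between the array sets. For each gene the 4 points of 48 and 72 h lie below all 10 points to their left, and in the 24 h group the open triangle lies below the filled circle in all 5 panels.

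RCA, the gene of the carbon-fixing branch, had signals of 341 and 409 on standard medium, 488 and 412 at 3 h, 465 and 581 at 6 h, 395 and 727 at 12 h, 715 and 355 at 24 h, 54.0 and 69.7 at 48 h, and 46.2 and 41.7 at 72 h. Its highest group mean was 561 ± 235 at 12 h and its lowest 43.9 ± 3.21 at 72 h, against 375 ± 48.2 on standard medium (mean ± SD, n = 2). The arrays of 12, 24, 6 and 3 h, in falling order of the mean, overlapped from each group to the next, while 48 h lay above 72 h without overlap. RCA fell at both later times, with a log2 fold change of −2.33 ± 0.28 (SE) at 48 h and −2.70 ± 0.28 at 72 h (limma, adjusted p = 2.54e-06 and 2.82e-07). The value at 72 h was within the lowest 1.11% of all fold changes in that comparison.

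LHCB4.1, of the antenna, had signals of 273 and 265 on standard medium, 275 and 288 at 3 h, 278 and 387 at 6 h, 309 and 339 at 12 h, 405 and 286 at 24 h, 71.8 and 52.3 at 48 h, and 56.1 and 39.5 at 72 h. The means of 24, 6 and 12 h headed the order with overlapping arrays, and those of 48 and 72 h closed it, also with overlap. The gene fell at both later times, with a log2 fold change of −1.88 ± 0.23 at 48 h and −2.17 ± 0.23 at 72 h (limma, adjusted p = 2.37e-06 and 2.77e-07).

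LHCB4.3, a second CP29 gene of the antenna, had signals of 81.7 and 68.1 on standard medium, 86.0 and 74.9 at 3 h, 82.6 and 93.8 at 6 h, 83.8 and 97.7 at 12 h, 84.0 and 35.5 at 24 h, 24.3 and 31.1 at 48 h, and 21.3 and 18.1 at 72 h. The order of its means was 12, 6 and 3 h, standard medium and 24 h, each overlapping the next, then 48 h and 72 h without overlap. It fell at both later times, with a log2 fold change of −1.06 ± 0.32 at 48 h and −1.34 ± 0.32 at 72 h (limma, adjusted p = 0.0147 and 0.00237). Without standard replicate 1 or without replicate 1 of 48 h the call at 48 h was lost, with adjusted p = 0.0869 and 0.111. LHCB4.2, the remaining CP29 gene, did not pass the filter and was not tested. Its signal was 1.22 to 13.2 at 48 and 72 h and 52.2 to 121 on the other arrays.

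PSAE1, of photosystem I, had signals of 80.7 and 77.3 on standard medium, 55.6 and 92.1 at 3 h, 92.8 and 92.8 at 6 h, 98.3 and 105 at 12 h, 105 and 50.1 at 24 h, 7.09 and 29.9 at 48 h, and 12.1 and 3.35 at 72 h. The 48 h and 72 h arrays overlapped, as did those of standard medium, 24 h and 3 h. It fell at both later times, with a log2 fold change of −1.55 ± 0.37 at 48 h and −2.03 ± 0.37 at 72 h (limma, adjusted p = 0.00310 and 0.000229). The call at 48 h rested on replicate 1 of that time, without which the value was −1.05 with adjusted p = 0.0897. PSAN, another photosystem I subunit gene, stayed below the filter and had 1.34 to 8.86 at 48 and 72 h, against 27.9 to 148 on the other arrays.

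PSBW, of photosystem II, had signals of 101 and 76.8 on standard medium, 98.6 and 86.9 at 3 h, 141 and 133 at 6 h, 159 and 140 at 12 h, 196 and 92.4 at 24 h, 34.7 and 29.3 at 48 h, and 16.8 and 22.7 at 72 h. At 6 h and at 12 h both of its arrays lay above both standard arrays. The same held for LHCB4.1, LHCB4.3 and PSAE1 at both times, and for RCA at 6 h but not at 12 h. How many of all tested probe sets do so was not counted. The log2 fold change of PSBW at 6 and 12 h was 0.55 ± 0.29 and 0.67 ± 0.29. Neither passed the test over all probe sets (limma, adjusted p = 0.521 and 0.321). At 12 h PSBW was the 1 gene of the 5 with an unadjusted p under 0.05 (0.0347). PSBW fell at both later times, with a log2 fold change of −1.12 ± 0.29 at 48 h and −1.55 ± 0.29 at 72 h (limma, adjusted p = 0.00627 and 0.000344). Without standard replicate 1 the call at 48 h was lost (adjusted p = 0.0618), as it was without replicate 2 of 48 h (0.0551).

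**Figure D2:**
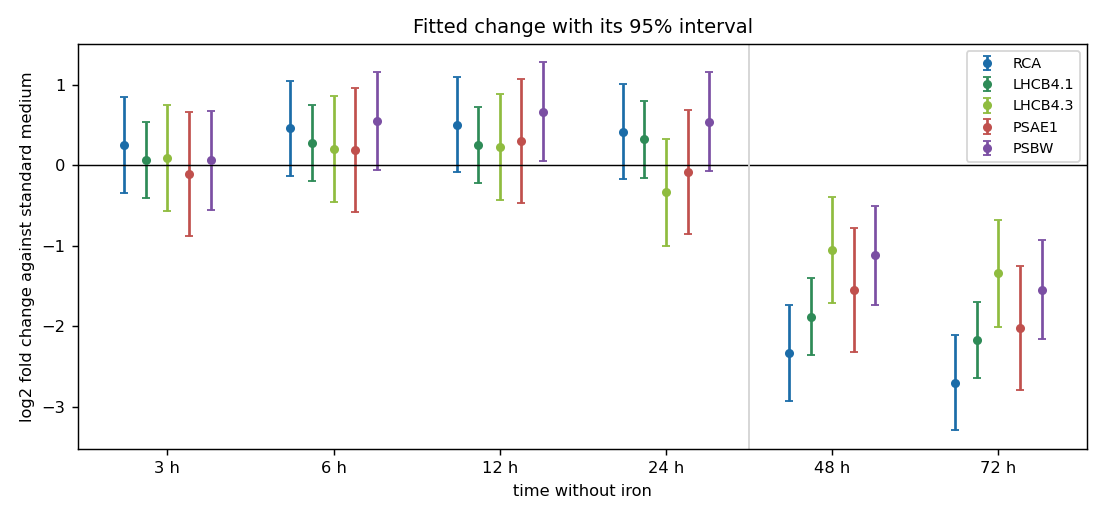
Log2 fold change of each gene against standard medium (vertical axis) at each time without iron (horizontal axis), with points for the limma estimate and bars for its 95% interval; the grey line marks the step between the array sets. All intervals at 48 and 72 h lie below 0, whereas at 3, 6 and 24 h every interval spans 0, and at 12 h that of PSBW alone does not, with a lower bound of 0.05.

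The 95% intervals give a range for the change at 24 h under 1 spread shared by all 7 groups. At 24 h they ran from −0.18 to 1.01 for RCA, −0.15 to 0.80 for LHCB4.1, −0.997 to 0.32 for LHCB4.3, −0.86 to 0.69 for PSAE1 and −0.07 to 1.16 for PSBW. The estimate at 72 h lay outside each of these intervals. They may be too narrow, because the 2 arrays of 24 h differed by 0.88 to 0.98 in log2 for 4 of the 5 genes, as described further on. From replicate 2 of 24 h alone LHCB4.3 stood at −0.82, so a larger fall at 24 h is not excluded for it. Between 3 h and 24 h without iron, a comparison that uses neither the standard arrays nor the later set, the 5 values ran from −0.42 (LHCB4.3) to 0.48 (PSBW) and 0 were called, where 2% of all tested probe sets were at the same adjusted threshold. At an unadjusted limma p under 0.05 the number of the 5 was 0 as well, with the share of all tested probe sets not counted.

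The step lay between 24 and 48 h, where the array set also changed. RCA stood at −2.75 ± 0.28 in that comparison, LHCB4.1 at −2.20 ± 0.23, PSBW at −1.66 ± 0.29 and PSAE1 at −1.46 ± 0.37, and these 4 were lower, as were 12.7% of all tested probe sets (limma, adjusted p = 6.40e-07, 6.40e-07, 0.000301 and 0.00649). RCA was within the lowest 0.278% of all fold changes. LHCB4.3 was at −0.72 ± 0.32 and was not called (adjusted p = 0.109), but without replicate 2 of 24 h it was at −1.199 and was called (0.0240). Without replicate 1 of 24 h it was at −0.24 (adjusted p = 0.719). Leaving out replicate 1 of 24 h or of 48 h ended the call of PSAE1 (adjusted p = 0.135 and 0.149).

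Between 72 and 48 h, the one comparison of times inside the later set, all 5 values were negative and 0 were called, where 2 of the 13648 probe sets were (0.0147%). The values were −0.37 ± 0.28 for RCA, −0.29 ± 0.23 for LHCB4.1, −0.29 ± 0.32 for LHCB4.3, −0.48 ± 0.37 for PSAE1 and −0.43 ± 0.29 for PSBW, each with a limma adjusted p of 1.00 after rounding and an unadjusted p of 0.161 to 0.375. The 95% intervals reached from −1.25 (PSAE1) to 0.37 (LHCB4.3). Without replicate 2 of 48 h the value of PSAE1 was 0.01, and without replicate 1 of 48 h it was −0.98.

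The 2 arrays of 24 h differed for the whole group. Replicate 2 was below replicate 1 by 0.98 on the log2(signal + 16) scale for RCA, by 0.97 for PSBW, 0.96 for LHCB4.3, 0.88 for PSAE1 and 0.48 for LHCB4.1. Over all tested probe sets the median of this difference was 0.00, and its 5th and 95th percentiles were −0.56 and 0.51. RCA, PSBW, LHCB4.3 and PSAE1 were within the lowest 0.696%, 0.740%, 0.784% and 1.17% of that distribution and LHCB4.1 within the lowest 7.47%. In the other groups the median difference of the 5 genes was −0.16 to 0.22.

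The log2 fold changes at 24 h therefore depended on which array was used. From replicate 1 alone RCA stood at 0.91, PSBW at 1.02, LHCB4.1 at 0.56, PSAE1 at 0.35 and LHCB4.3 at 0.14, and from replicate 2 alone at −0.07, 0.06, 0.08, −0.52 and −0.82. Neither array alone gave a call among the 5 genes, with limma adjusted p of 0.137 to 0.985. The single array was assumed to vary like the other groups in these fits. At 12 h RCA stood at 0.93 from replicate 2 alone and at 0.08 from replicate 1 alone, without a call. Outside the photosynthesis genes, CHLM (−0.71) and GGR (−0.61) of chlorophyll synthesis and the 4 plastid ribosomal protein loci (−0.63 to −0.38) were also lower in replicate 2 of 24 h, while GSA1 (0.47) and HEME1 (0.35) were higher. The root markers showed no such drop in replicate 2 of 24 h, where PYK10 differed by 0.02, SGN3 by 0.06, MCM7 by 0.06, EXPA7 by 0.23 and EXPA18 by 0.46. The part of dissection, tissue makeup or RNA quality in this difference was not tested.

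**Figure D3:**
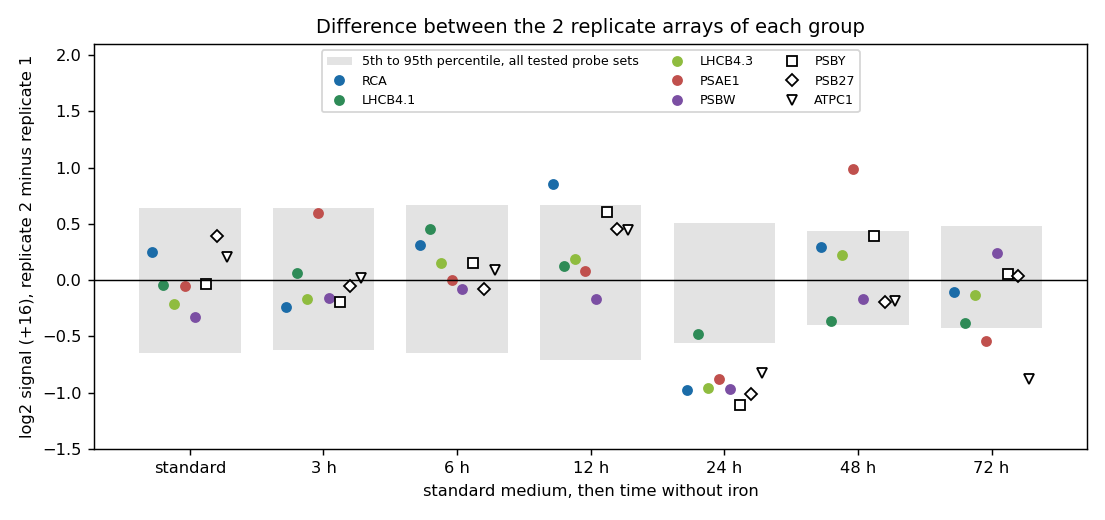
Log2 signal of replicate 2 minus that of replicate 1 (vertical axis) in each group (horizontal axis) for the 5 genes (coloured circles) and 3 other photosynthesis genes (open black symbols); grey boxes span the 5th to the 95th percentile over all tested probe sets. At 24 h all 8 genes lie below 0, between −1.11 and −0.48, and 7 of them lie below the grey box, while in the other groups they lie on both sides of 0, with 4 points outside the box, RCA at 12 h (0.85), PSAE1 at 48 h (0.99) and 72 h (−0.54) and ATPC1 at 72 h (−0.88).

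The same drop in replicate 2 of 24 h was present in the other tested photosynthesis genes, PSBY (−1.11), PSB27 (−1.01) and ATPC1 (−0.83). Across arrays the 5 genes moved together. Over all 14 arrays Pearson's r between pairs was 0.909 to 0.982, which largely restates the step between the array sets. Over the 10 earlier arrays it was 0.379 to 0.787 with a median of 0.605, lowest for LHCB4.1 with LHCB4.3 and highest for RCA with LHCB4.1. These values are descriptions over 10 pairs of genes that share arrays, scaling and, at 24 h, the replicate that stood apart.

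Other nuclear photosynthesis genes were listed by role from general knowledge, with 73 genes beside the 5. Of these, 7 had a probe set paired with 1 gene and 3 passed the filter, so the list speaks for few genes. At 48 h and again at 72 h, 2 of the 3 were lower and 0 higher. Over all tested probe sets 15.6% were lower and 15.9% higher at 48 h, and 17.6% and 18.3% at 72 h. The median log2 fold change of the 3 was −2.16 and −2.22, against 0.06 and 0.07 over all tested probe sets. PSBY, a small subunit of photosystem II, fell to 40.3 ± 1.38 at 72 h, against 245 ± 4.88 on standard medium (−2.22 ± 0.29, limma adjusted p = 4.63e-06). ATPC1, the gamma subunit of the chloroplast ATP synthase, fell to 78.3 ± 39.3 at 72 h, against 491 ± 49.9 on standard medium (−2.49 ± 0.27, adjusted p = 3.95e-07). Of the 4 genes below the filter, LHCB4.2, PSAN and PRK were lower on every later array than on any earlier array, and SBPASE was not. Without the filter 10.8% of 22746 probe sets showed that pattern.

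PSB27, which encodes a lumenal factor for the assembly and repair of photosystem II, followed another course. It had 40.004 and 57.4 on standard medium, 72.7 and 69.4 at 3 h, 135 and 127 at 6 h, 116 and 165 at 12 h, 162 and 72.5 at 24 h, 41.0 and 33.8 at 48 h, and 35.7 and 36.9 at 72 h. All arrays of 3 to 24 h lay above both standard arrays, as was also so for LHCB4.1. The share of all tested probe sets with that pattern was not counted. The rise of 1.27 ± 0.31 at 12 h passed the test (limma, adjusted p = 0.0299), where 1.07% of all tested probe sets were called higher. The values of 1.199 at 6 h (adjusted p = 0.0777) and 0.97 at 24 h (0.103) did not. Group means of PSB27 on standard medium (48.7), at 48 h (37.4) and at 72 h (36.3) were below the filter level of 49.6. The gene passed the filter through its arrays of 3 to 24 h, so its calls are not independent of the filter. The call at 12 h was lost without standard replicate 1 (adjusted p = 0.218), without replicate 2 of 12 h (0.215), in a fit of the 10 earlier arrays alone (0.0535), in a fit of the 4 arrays compared (0.104) and with no filter (0.0832). Without replicate 2 of 24 h PSB27 was called higher at 6 h (0.0467) and at 24 h (0.0255, at 1.47). Against 24 h it was lower at 48 h (−1.24, adjusted p = 0.00609), a call that leaving out replicate 1 of 24 h (0.172) or replicate 2 of 48 h (0.0613) ended. At 72 h it was at −0.29 against standard medium and was not called.

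Chlorophyll synthesis supplies the pigment that antenna and photosystem proteins bind. Of 25 genes listed, 8 had a probe set and 6 passed the filter, and 3 of these 6 were lower and 0 higher at both 48 and 72 h, with a median of −0.23 and −0.14. Over all tested probe sets 15.6% were lower and 15.9% higher at 48 h, and 17.6% were lower and 18.3% higher at 72 h. GGR (AT1G74470), the geranylgeranyl reductase that makes the phytol tail of chlorophyll, fell to 53.3 ± 26.6 at 72 h, against 534 ± 1.38 on standard medium (−3.04 ± 0.24, limma adjusted p = 4.51e-09). CHLM, a methyltransferase of the magnesium branch that leads to chlorophyll alone, fell at 72 h (−1.15 ± 0.25, adjusted p = 0.00140), while its call at 48 h (−0.70, 0.0396) was lost without any 1 of the 4 arrays compared (0.0644 to 0.187). HEMB1, HEME1, HEME2 and GSA1 act earlier, in steps that also lead to heme. GSA1 stood at 0.24, HEME1 at 0.30 and HEME2 at 0.18 at 72 h without a call. HEMB1 was at −0.46 there (adjusted p = 0.0467), a call that leaving out either array of 72 h or of standard medium ended (0.0785 to 0.223). The differences between these genes were not tested.

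A further list held genes for plastid ribosomal proteins, drawn up from general knowledge, and the tables used here give no symbol to its 4 loci with a probe set. At 72 h 4 of these 4 were lower, with a median of −1.26 and a range of −1.96 to −0.9995, and at 48 h 3 were, where 17.6% and 15.6% of all tested probe sets were lower. For 1 locus the call at 72 h was lost without standard replicate 1 (adjusted p = 0.0768) or replicate 1 of 72 h (0.0680). The list of regulators of photosynthesis genes and those of plastid protein import and root-type plastid redox proteins, and the markers of the stele, had 0 genes with a probe set paired with 1 gene.

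**Figure D4:**
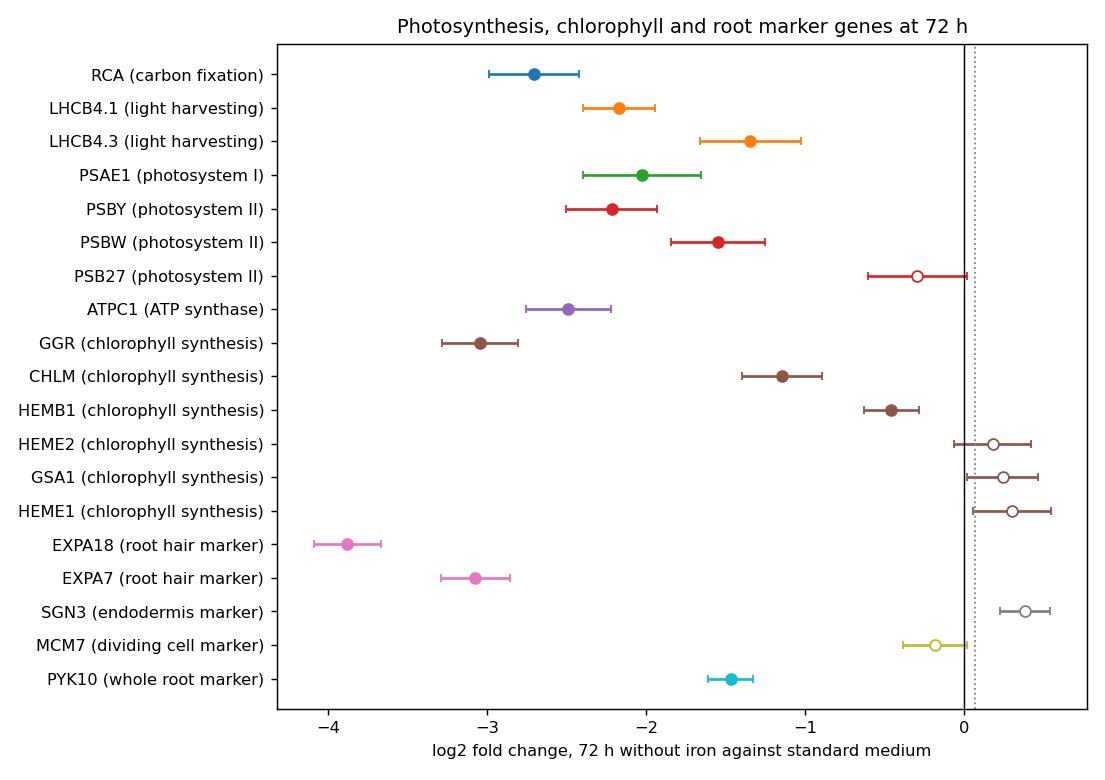
Log2 fold change at 72 h without iron against standard medium (horizontal axis) for each tested gene of the photosynthesis and chlorophyll lists and of the root markers (rows, with the list in brackets); bars are the SE, filled points passed the test, open points did not, and the dotted line is the median of all tested probe sets at 0.07. The photosynthesis genes other than PSB27 lie between −2.70 and −1.34, and GSA1, HEME1 and HEME2 lie slightly above 0.

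Some root markers were also lower on the later arrays. At 72 h the root hair expansin genes EXPA18 and EXPA7 fell, with log2 fold changes of −3.88 ± 0.21 and −3.07 ± 0.22, as did PYK10 with −1.47 ± 0.14. EXPA18 and EXPA7 were lower at 24 h too (−1.39 and −0.86), where 2.01% of all tested probe sets were called lower. The 2 genes already stood at −0.95 to −0.77 at 3 h, without a call. At 6 h EXPA18 was called lower (−1.06, limma adjusted p = 0.0144) and EXPA7 was not (−0.89, 0.0598). At 12 h both were called, EXPA18 at −1.13 (0.00359) and EXPA7 at −0.91 (0.0255). Of all tested probe sets 0.579% were called lower at 6 h and 1.56% at 12 h. Without standard replicate 1 the values were −0.85 for EXPA18 at 6 h, and −0.93 for EXPA18 and −0.54 for EXPA7 at 12 h. The call of EXPA7 at 24 h (adjusted p = 0.0291) was lost without standard replicate 1 (−0.49, 0.445) and without either array of 24 h (0.259 and 0.0906). MCM7 was at −0.18 at 72 h and SGN3 at 0.38, and neither was called (limma, adjusted p = 0.519 and 0.0662). With each array centred on its median SGN3 was called higher (0.0489). The part of the array set, RNA quality or tissue makeup in the lower values of the 5 genes at 48 and 72 h was not tested.

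The genes whose profile was most like the mean of the 5 were found by Pearson's r of standardised log2 signals over 7356 tested probe sets paired with 1 gene, the 5 left out. Over the 14 arrays these were AT1G01170 (0.986), GGR (0.985) and PSBY (0.985), with ATPC1 next (0.983). Over the 10 earlier arrays they were AT3G08650 (0.883), AT4G16410 (0.869) and PSBY (0.855), with ATPC1 eighth (0.829) and PSB27 thirteenth (0.823). The root markers that fell at 48 and 72 h had r of 0.858 (EXPA18), 0.870 (EXPA7) and 0.952 (PYK10) over the 14 arrays, but of −0.494, −0.470 and −0.251 over the 10 earlier ones.

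For single genes over the 14 arrays the likest profile was that of AT1G01170 for RCA (0.990), AT4G28085 for LHCB4.1 (0.987), AT4G02530 for PSAE1 (0.961), PSBY for LHCB4.3 (0.969) and AT1G64380 for PSBW (0.978). Those of the gene for the thylakoid rhodanese-like protein TROL for LHCB4.1 (0.987), GGR for PSAE1 (0.960) and the gene of the chloroplastic lipocalin CHL for PSBW (0.969) were also among the 3 likest. Over the 10 earlier arrays the likest were AT5G04810 for RCA (0.952), AT4G27700 for LHCB4.1 (0.904), AT1G18900 for PSAE1 (0.898), AT2G43030 for LHCB4.3 (0.920) and AT2G17760 for PSBW (0.933). With so few arrays, many of 7356 profiles reach high values of r.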

How the data were processed

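RNA of whole roots was measured on 14 Affymetrix arrays, 2 in each of 7 groups named from the sample titles. The deposited file holds 1 linear intensity per probe set and array. Per the submitters' processing notes the authors used MAS5, and its scaling was kept. All 14 columns were matched and 0 were left over. The 22810 probe sets included 64 controls, which were left out. After log2(signal + 16), the 40% with the lowest mean, a level of 49.6, were removed. The other 13648 were fitted with limma 3.58.1 in R 4.3.3, with 1 mean per group, all 14 arrays and a variance trend, and adjusted by Benjamini-Hochberg within each comparison. Genes were named through the platform table and gene identifiers. The text names the 5 genes, the 2 largest rises and falls at 72 h per list, and the 3 likest profiles, with others of interest chosen after their values were seen. The 5 genes and all lists were chosen with earlier results of these data known. The fit was tested on simulated data. No promoter or protein sequence was used here, so the planned motif search was not run. Alternatives are given at the end.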

Additional observations from a re-analysis of the deposited data

How the results depend on the processing

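With 2 arrays per group, 1 array can decide a call. The number of the 5 genes called stayed within 1.5 times its value in 217 alternatives over the 9 comparisons and moved further in 5. Much of the 217 comes from the comparisons at 3, 6, 12 and 24 h, 24 against 3 h and 72 against 48 h. There the number was 0 and stayed 0. Other alternatives left out an array that was not compared. All 5 that moved were at 48 h, at 72 h or between 48 and 24 h, so the 217 does not measure how stable the calls were. With the lowest 60% of probe sets removed, RCA and LHCB4.1 alone were still tested, and both were called, so the number was 2 at 48 h, 2 at 72 h and 2 between 48 and 24 h. Leaving out 1 array at a time gave 3 to 5 called genes at 48 h, with 3 called without standard replicate 1 and 3 without replicate 1 of 48 h. At 72 h each of the 5 genes was called in every alternative in which it was tested. No value that passed the test changed sign. Over the alternatives 9.59% to 17.7% of all tested probe sets were called lower at 48 h and 11% to 19.7% at 72 h. Whether same replicate numbers pair the arrays is not settled. Deviations from group means correlated at −0.14 to 0.27 between groups, above 0.1 in 4 of 21 pairs and highest for 48 h with 72 h. With the replicate number as a block, 0 genes were called at 3, 6, 12 and 24 h, 5 at 48 h, 5 at 72 h, 4 between 48 and 24 h, and 0 in the other comparisons. Scanner files were not used here, so signal over background was not assessed. The low signals of PSAE1, PSBW and LHCB4.3 on the later arrays are below the filter level of 49.6. So are those of RCA on both arrays of 72 h (46.2 and 41.7) and of LHCB4.1 on replicate 2 of 72 h (39.5).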
